A study of Mus musculus with 8 samples.

Results

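The GATA factors GATA1, GATA2 and GATA3 are zinc finger proteins that bind DNA at GATA letters, and FOG1, encoded by Zfpm1, is the partner protein that binds their zinc fingers. The 4 genes Gata1, Gata2, Gata3 and Zfpm1 were chosen by name from 24538 gene IDs of the RNA files. Open regions were chosen by distance, within 300 kb of Gata3 and 100 kb of the other genes, which gave 169 of 134830 regions: 20 near Gata1, 32 near Gata2, 60 near Gata3 and 57 near Zfpm1.

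Bone marrow LSK cells, a lineage-negative stem and progenitor fraction, were cultured over OP9-DL1 stroma, whose Notch ligand directs progenitors to the T lineage. Control donors were CreER+ WT and knockout donors CreER+ with floxed Tcf7 and floxed Lef1, the genes of TCF1 and LEF1, so both groups carried the inducible Cre. Cells received 4-OH tamoxifen on days 3 to 5 and were sorted on day 7 as Lin-CD8-CD4-CD44hiCD25- ckit+ cells, the DN1 stage at the start of the T lineage. There were 2 control and 2 knockout libraries for RNA-seq, and 2 and 2 for ATAC-seq, which marks open chromatin by transposase insertions. The labels used here do not give the promoter of CreER, the age of the donors or whether replicates were separate animals. The p-values therefore cover only the differences among these libraries, which may be technical.

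GATA3 is needed from the earliest T-cell progenitors onward and later directs Th2 cells and type 2 innate lymphoid cells (ILC2). GATA2 works in stem and progenitor cells, mast cells and basophils, and is replaced by GATA1 as cells become erythroid or megakaryocytic. FOG1 joins GATA1 in red cell and platelet development and recruits NuRD, a chromatin remodelling and histone deacetylase complex, while mast cells keep GATA factors with little FOG1.

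RNA levels are TPM, transcript abundance scaled for transcript length and to the same total in every library. The check of the deleted genes gave Tcf7 levels of 518 and 510 TPM for control and 13.2 and 12.4 TPM for knockout. Lef1 was low in both, with 1.66 and 1.10 TPM for control and 1.46 and 1.57 TPM for knockout, and so does not check its deletion. Of the genes used for the sort, Kit was present at 251 and 238 TPM in control and 157 TPM in both knockout libraries, Cd44 lay between 94.0 and 109 TPM, and Cd4 did not exceed 0.32 TPM. Il2ra, the gene of CD25, stood at 136 and 133 TPM in control and 0.658 and 0.393 TPM in knockout, although cells were gated as CD25-negative in both groups. RNA libraries held 13050 to 13314 genes at 1 TPM or more, and ATAC lists 103009 to 111007 peaks.

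The GATA factors moved in opposite directions. On log2(TPM + 1), tested with limma over 13228 genes and called at a Benjamini-Hochberg adjusted p under 0.05, Gata2 and Gata1 rose and Gata3 and Zfpm1 fell in knockout. Among all tested genes 39.8% were called, 25.2% higher and 14.7% lower. That split depends on the scale. Lower calls were 36.8% of all calls on the deposited TPM, against 46.8% with quantile normalization and 50.6% with median-ratio scaling, which moved the median log2 change of all genes from 0.09 to −0.003. In each of the 4 genes both knockout libraries lay outside the range of the control libraries, on the higher side for 2 genes and on the lower side for 2. Such separation was common, since 44.4% of tested genes had both knockout libraries above both controls and 29% had both below.

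**Figure D1:**
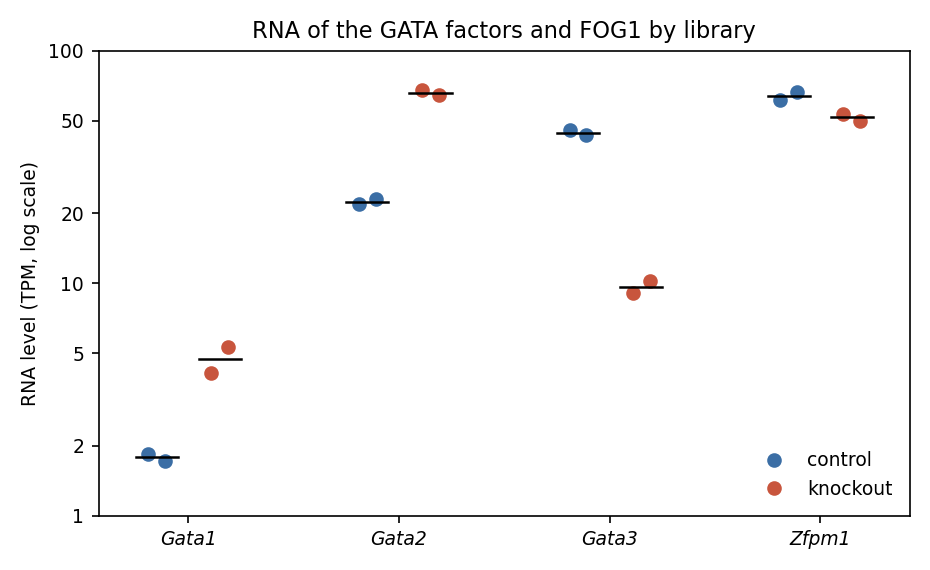
RNA level in TPM (log axis) of Gata1, Gata2, Gata3 and Zfpm1; each point is 1 library, blue for control and red for knockout, and each bar is the mean of 2. The knockout points of Gata2 (67.8 and 64.4 TPM) sit above its control points (21.8 and 22.9 TPM), and those of Gata3 (9.10 and 10.2 TPM) below its control points (45.4 and 43.4 TPM).

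Gata3 (chromosome 2, 9857078 to 9878600, minus strand, mm10) was measured at 45.4 and 43.4 TPM in control and 9.10 and 10.2 TPM in knockout. The lower control library was therefore more than 4 times the higher knockout library, while libraries of a genotype lay close together. Gata3 fell 4.59-fold, from 44.4 ± 1.4 TPM (SD, n = 2) to 9.67 ± 0.81 TPM (log2 change −2.09, SE 0.098, adjusted p = 0.000299, limma). Its level exceeded 82.1% to 82.7% of detected genes in control and 51.3% to 52.5% in knockout. The fall kept its call in every fit that left out 1 library (adjusted p = 0.00348 to 0.0130). Summed RNA of early T-lineage genes moved with it, from 1099 and 1097 TPM to 298 and 293 TPM. The sum of 7 NK and innate lymphoid genes also fell, from 143 and 137 TPM to 51.6 and 50.3 TPM. Only 3 of those 7 were tested, of which 2 fell and 1, Il1rl1, rose (14.7% and 25.2% over all tested genes). Most of the control sum came from 1 tested gene, since Rora and Il1rl1 were low and the untested genes averaged under 1 TPM. The fall of Rora, 1 of the 2, lost its call without any 1 library. The sum therefore gives no direction for the list. The part of either list in the Gata3 result was not tested. In these bulk libraries, fewer Gata3-expressing cells and less Gata3 RNA per cell cannot be told apart.

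The 250 bases before the RefSeq start of Gata3 (GRCm38.p6, the assembly of mm10; chr2:9878601-9878850, minus strand) are shown because an open region of all 4 lists covers them. Capitals mark GGGCGG, the GC box bound by Sp1-type factors:
Gata3: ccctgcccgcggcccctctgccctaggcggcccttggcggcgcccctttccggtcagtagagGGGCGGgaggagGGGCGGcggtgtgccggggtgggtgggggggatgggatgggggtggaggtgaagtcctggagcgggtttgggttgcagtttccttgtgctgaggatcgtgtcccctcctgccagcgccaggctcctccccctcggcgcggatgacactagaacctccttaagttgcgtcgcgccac
The stretch is 70.0% G and C and holds 2 GC boxes. It holds neither GATA nor the TCF/LEF letters CTTTGA and CTTTGT on either strand. Among 32851 RefSeq promoters of the same length, 32.7% hold GGGCGG, 53.6% GATA, 13.8% CTTTGA and 16.5% CTTTGT.

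Chromatin at Gata3 stayed open in both genotypes. Regions were made by merging peaks that share a base across the 4 lists, and the authors' peak caller gives each peak a fold enrichment over local background. These are the authors' values per list, with no read counts behind them here, so no test between lists was made. The region over the Gata3 start (chr2:9878461-9878928) had fold enrichments of 5.19 and 5.77 in control and 3.87 and 4.38 in knockout. A stronger region 1.12 kb upstream (chr2:9879445-9879899) had 13.4 in both control lists and 14.6 and 14.5 in knockout. The control lists were thus higher over the start itself and the knockout lists higher just before it.

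Within the gene, 7.23 kb past the start, a region (chr2:9871144-9871529) had 9.94 and 10.7 in control and 8.20 and 8.01 in knockout. Its neighbour at 5.81 kb (chr2:9872650-9873004) had 4.99 and 5.90 against 3.08 and 3.68. Both lay higher in the control lists. Deeper in the gene, at 17.7 kb, a region (chr2:9860787-9861051) was listed in knockout alone, with 6.60 and 6.10.

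Far downstream of Gata3 lies a gene-poor stretch known to hold a distal enhancer used by thymocytes and NK cells. At 285 kb from the start the strongest region of that stretch by −log10 q (chr2:9593781-9594403) had −log10 q of 362 to 412 and fold enrichments of 16.6 and 17.0 in control and 19.1 and 18.6 in knockout. A region at 271 kb (chr2:9607682-9608026) had 20.4 and 19.96 in control against 10.6 and 10.5 in knockout, and another at 304 kb (chr2:9574224-9574492) had 15.6 and 12.9 against 5.28 and 7.41. The downstream stretch therefore held neighbours of opposite order, and no region was matched to the published enhancer here. On the other side, inside Taf3, a region 68.4 kb before the Gata3 start (chr2:9946752-9947116) had 21.3 and 23.6 in control against 16.1 and 10.4 in knockout.

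Across the window of Gata3, 4 of 60 regions (6.67%) were control-alone, meaning a peak in both control lists and in neither knockout list, and 4 (6.67%) were knockout-alone. The shares over all regions were 4.79% and 6.63%. The 4 control-alone regions lay at 297 and 195 kb downstream and at 45.8 and 61.0 kb upstream, with fold enrichments between 4.56 and 8.11. Regions with a peak in all lists numbered 34 (56.7%, against 59.1% over all regions), and of these 10 had both control values above both knockout values and 10 the reverse, 29.4% each, against 24.9% and 28.9% over all such regions. These shares lie near the background, so the count gives no direction for the window as a whole. Without control replicate 1 the control-alone regions numbered 10, and without knockout replicate 1 the knockout-alone regions numbered 8. Leaving out a list loosens the definition of both classes, so here and below these counts can only stay or rise. Over all regions the same steps raised control-alone regions from 6458 to 11111 and knockout-alone regions from 8939 to 16282.

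**Figure D2:**
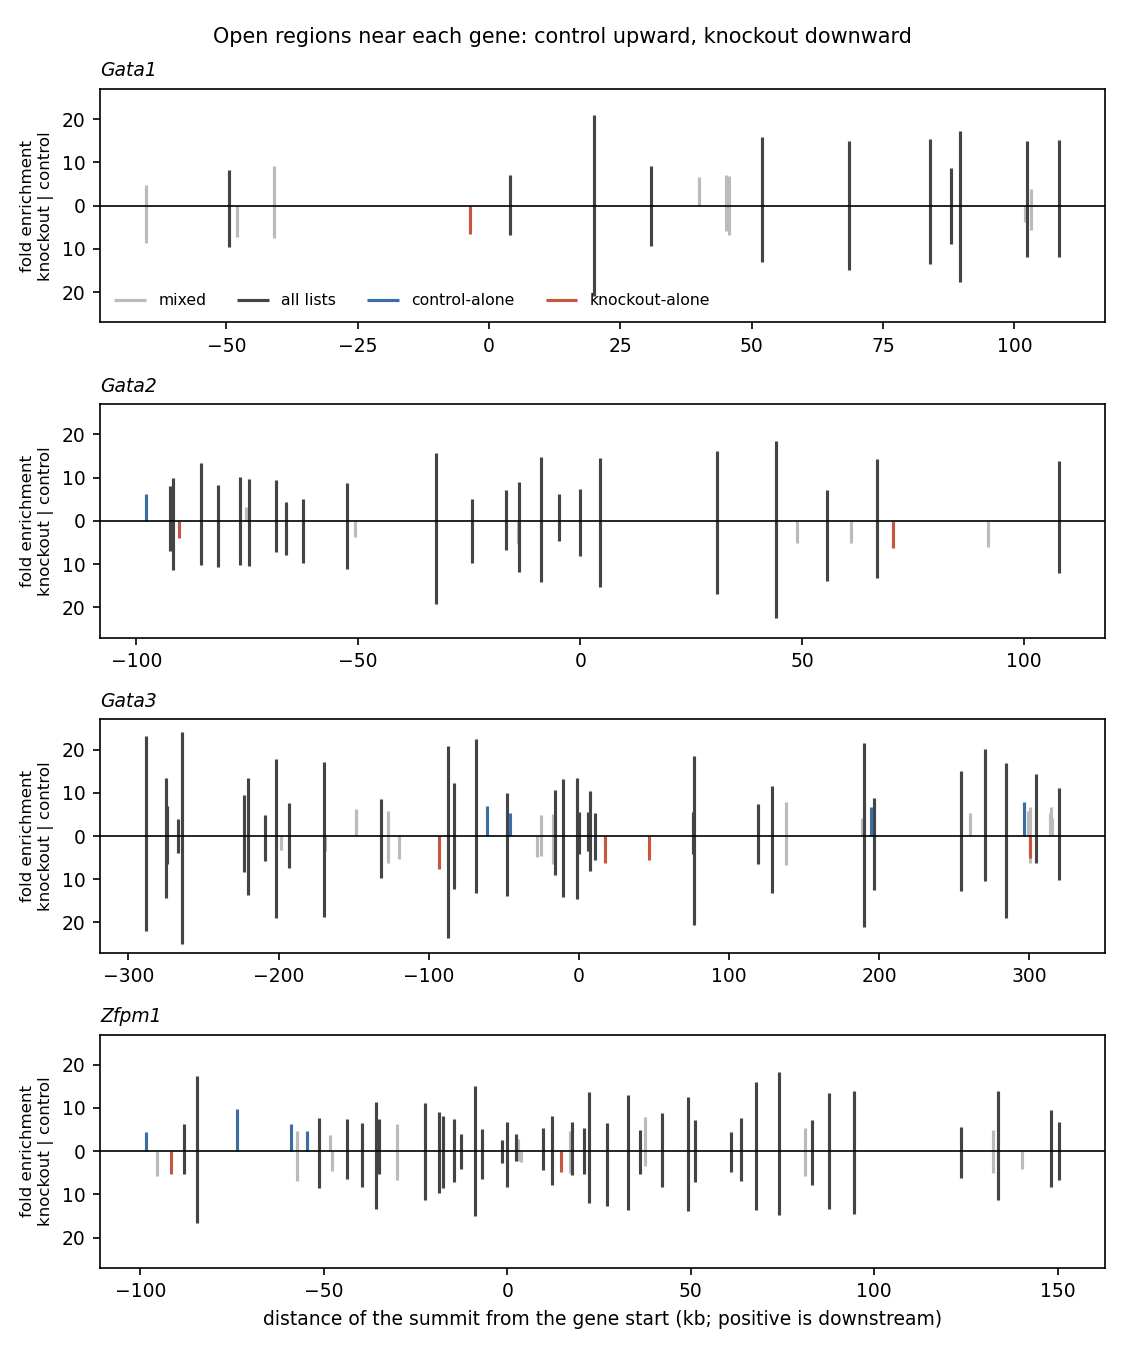
Open regions near each gene by distance from the gene start in kb (positive is downstream); bars give the mean fold enrichment over the lists that have a peak, control upward and knockout downward, coloured by the lists that hold the region. Near Gata3, 4 regions are control-alone and 4 knockout-alone; near Gata1, 0 and 1; mixed means any other combination of lists.

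Gata2 (chromosome 6, 88198664 to 88207032, plus strand) stood at 21.8 and 22.9 TPM in control and at 67.8 and 64.4 TPM in knockout. Each knockout value was more than 2 times each control value. It rose 2.96-fold, from 22.4 ± 0.80 to 66.1 ± 2.4 TPM (SD, n = 2; log2 change 1.52, SE 0.072, adjusted p = 0.000299, limma). Leaving out any 1 library kept the call (adjusted p = 0.00424 to 0.0123). In rank, Gata2 exceeded 68.6% to 70.1% of detected genes in control and 86.9% to 87.8% in knockout.

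RNA of most listed genes of the culture stroma moved with this rise. Of 18 stromal genes, 16 were tested, 11 rose and 0 fell (25.2% and 14.7% over all tested genes), with a median log2 change of 1.04 against 0.09 over all tested genes; without knockout replicate 1 there was 1 fall. Their summed level was 1119 and 1139 TPM in control and 2495 and 2060 TPM in knockout. The largest rises were in Postn (periostin, 0.544 and 0.453 against 6.88 and 7.76 TPM), Acta2 (smooth muscle actin, 10.1 and 7.59 against 50.1 and 46.7 TPM), Mgp (matrix Gla protein) and Tagln (transgelin). The other 5 tested genes were not called. Of these, Pdgfrb, a growth factor receptor, had 103 and 104 against 109 and 97.3 TPM, and Thbs1 (31.4 and 30.2 against 27.6 and 20.1 TPM) and Timp3 (6.96 and 6.24 against 5.42 and 4.70 TPM) were lower in both knockout libraries. Dll1, the ligand of the OP9-DL1 stroma, stood at 236 and 241 against 671 and 534 TPM. Dcn was listed at 0 in all 4 libraries, and Lum at 0 in 3 libraries and 0.209 TPM in the other. In the ATAC lists, 9 of the 18 genes had a peak within 500 bases of their start, the same number in each list. The share over all gene starts was not computed, so this count does not measure stromal chromatin in the libraries. What part stromal RNA has in the Gata2 rise was not tested.

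Gata2 has 2 RefSeq starts, and an open region of all 4 lists covers each. The upstream start, known as the haematopoietic and neural one, lies before the model used in the RNA files, which begins at the proximal start. Their preceding 250 bases (chr6:88193641-88193890 and chr6:88198414-88198663, plus strand, GRCm38.p6) are shown since the lists differed in opposite directions over them, with GC boxes (GGGCGG) and CCAAT, the letters bound by NF-Y, in capitals on either strand:
Gata2 upstream: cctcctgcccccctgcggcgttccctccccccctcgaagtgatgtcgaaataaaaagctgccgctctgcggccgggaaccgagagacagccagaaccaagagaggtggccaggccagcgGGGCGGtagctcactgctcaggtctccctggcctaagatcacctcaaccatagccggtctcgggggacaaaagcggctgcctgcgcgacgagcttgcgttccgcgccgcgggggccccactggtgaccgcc
Gata2 proximal: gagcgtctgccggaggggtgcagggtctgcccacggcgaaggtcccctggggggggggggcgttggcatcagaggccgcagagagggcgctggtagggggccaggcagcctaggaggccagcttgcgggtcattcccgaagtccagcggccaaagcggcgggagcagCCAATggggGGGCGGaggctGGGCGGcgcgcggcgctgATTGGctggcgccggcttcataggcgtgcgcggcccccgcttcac
The proximal stretch holds 2 CCAAT letters and 2 GC boxes at 74.0% G and C, the upstream one 1 GC box and no CCAAT at 67.2%. CCAAT is present in 33.8% of all RefSeq promoters of this length. Neither stretch holds the GATA letters or a TCF/LEF motif as spelled above.

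Over the upstream start (chr6:88193614-88194366) fold enrichments were 6.43 and 5.91 in control and 4.84 and 4.67 in knockout. Over the proximal start (chr6:88198431-88198939) they were 7.38 and 7.25 in control and 8.46 and 7.99 in knockout. The order of the genotypes was thus reversed between the starts, each by a small margin.

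Inside the gene, 9.30 kb past the upstream start, a region (chr6:88202955-88203619) stood at 14.9 and 14.3 in control and 16.0 and 14.6 in knockout. The genotypes overlapped there. An intron of Gata2 is known to hold an enhancer that blood stem cells require, to which the region was not matched. A region 76.8 kb before the upstream start (chr6:88116659-88117418) stood at 5.82 and 10.9 in control and 10.6 and 10.5 in knockout. The 2 control lists differed from each other there, and the knockout values lay between them.

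Clearer separation lay elsewhere in the window, where regions had both knockout values above both controls. At 55.5 kb downstream of the proximal start (chr6:88254018-88254357) the values were 6.53 and 7.77 in control and 14.8 and 13.1 in knockout. At 24.3 kb upstream of it (chr6:88174223-88174497) they were 4.97 and 5.32 against 8.80 and 10.6, and at 62.3 kb upstream (chr6:88136132-88136503) 4.69 and 5.23 against 8.96 and 10.8. Of 23 regions in all lists, 11 (47.8%) had the knockout values higher and 3 (13.0%) the control values higher, where the background was 28.9% and 24.9%. Control-alone regions numbered 1 (3.1%) and knockout-alone regions 2 (6.25%) of 32, against 4.79% and 6.63% over all regions. Knockout-alone regions numbered 5 and 4 without knockout replicates 1 and 2, and control-alone regions 2 without control replicate 1. Over all regions the same steps also raised the counts, to 16282 and 15400 knockout-alone and 11111 control-alone regions. No test of these shares was made.

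Gata1 (chromosome X, 7959260 to 7967910, minus strand) was the lowest of the 4 genes, at 1.84 and 1.72 TPM in control and 4.10 and 5.33 TPM in knockout. The genotypes did not overlap, and the 2 knockout libraries differed more from each other than the controls did. Gata1 rose 2.65-fold, from 1.78 ± 0.089 to 4.72 ± 0.87 TPM (SD, n = 2; log2 change 1.03, SE 0.21, adjusted p = 0.0151, limma). The call was lost without control replicate 1 (adjusted p = 0.0623), control replicate 2 (0.0698) or knockout replicate 2 (0.0762), with 0.0151 to 0.0762 over all its fits. Even in knockout it exceeded only 41.9% to 44.0% of detected genes.

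No open region of any list overlapped the 250 bases before the RefSeq start of Gata1 (chrX:7967911-7968160, minus strand, GRCm38.p6), which are shown as the 1 promoter of the set without a peak, with GATA and GGGCGG in capitals:
Gata1: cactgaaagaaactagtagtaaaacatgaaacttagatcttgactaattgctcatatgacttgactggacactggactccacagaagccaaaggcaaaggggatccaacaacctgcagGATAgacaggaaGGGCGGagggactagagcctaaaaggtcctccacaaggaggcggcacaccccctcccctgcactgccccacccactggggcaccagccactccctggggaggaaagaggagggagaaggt
This was the poorest of the 5 promoters in G and C, at 54.0%, and the only one with GATA letters, on the strand shown. It holds no AGATAA, the longer GATA motif, which 9.99% of RefSeq promoters of this length hold, and neither TCF/LEF motif.

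The 1 knockout-alone region near Gata1 lay 3.55 kb before its start (chrX:7971391-7971595), with fold enrichments of 6.60 and 6.54 and no peak in either control list. An enhancer of Gata1 in red cells, megakaryocytes and mast cells is known a short way upstream of that start, and the region was not matched to it. Within the gene, 3.90 kb past the start, a region (chrX:7963832-7964381) was in all lists at 7.66 and 6.62 in control and 7.15 and 6.40 in knockout, without separation. Of 20 regions, 0 were control-alone, and of 11 in all lists 4 had the control values higher and 0 the knockout values. Those 4 lay 52.0 to 108 kb downstream, 2 of them inside Otud5 and 1 across the start of Slc35a2. Over all regions 4.79% were control-alone and 6.63% knockout-alone, and of those in all lists 24.9% had the control values higher and 28.9% the knockout values. Without control replicate 2, knockout replicate 1 or knockout replicate 2 the knockout-alone regions numbered 2, and without control replicate 1 or knockout replicate 1 there was 1 control-alone region.

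Zfpm1 (chromosome 8, 122282141 to 122337247, plus strand) was abundant in both genotypes, at 61.4 and 66.3 TPM in control and 53.6 and 49.96 TPM in knockout. The genotypes did not overlap, but the gap between them was the narrowest of the 4 genes as a ratio. Zfpm1 fell 1.23-fold, from 63.9 ± 3.5 to 51.8 ± 2.5 TPM (SD, n = 2; log2 change −0.30, SE 0.071, adjusted p = 0.0239, limma). Its call was lost without control replicate 1 (adjusted p = 0.0554), control replicate 2 (0.112) or knockout replicate 2 (0.0947), with 0.00972 to 0.112 over all its fits.

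The 250 bases before the Zfpm1 start (chr8:122281891-122282140, plus strand, GRCm38.p6) are shown as the most GC box-rich of the set, with GC boxes in capitals on either strand:
Zfpm1: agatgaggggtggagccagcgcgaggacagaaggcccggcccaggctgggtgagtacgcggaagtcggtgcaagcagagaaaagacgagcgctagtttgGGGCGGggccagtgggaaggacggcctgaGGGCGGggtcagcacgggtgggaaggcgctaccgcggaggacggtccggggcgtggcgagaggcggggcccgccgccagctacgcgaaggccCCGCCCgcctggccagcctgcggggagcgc
It holds 3 GC boxes at 73.2% G and C, and holds neither the GATA letters nor those TCF/LEF motifs. The region over this start (chr8:122281237-122282196) had fold enrichments of 6.72 and 6.62 in control and 8.14 and 8.40 in knockout, so the knockout lists were higher although the RNA was lower.

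Inside Zfpm1 the regions went both ways. At 2.32 kb past the start (chr8:122284235-122284674) values were 3.69 and 4.03 in control and 2.33 and 2.01 in knockout. At 27.3 kb (chr8:122309223-122309699) they were 5.93 and 7.04 against 11.7 and 13.6. Control-alone regions numbered 4 of 57 (7.02%), all of them upstream at 54.6 to 98.5 kb from the start, and the strongest (chr8:122208286-122208635) had 10.3 and 9.35. Knockout-alone regions numbered 2 (3.51%), and 5 without knockout replicate 2. Of 39 regions in all lists, 12 (30.8%) had the control values higher and 6 (15.4%) the knockout values. The shares over all regions were 4.79% and 6.63% for control-alone and knockout-alone, and 24.9% and 28.9% for control and knockout values higher. No test of these shares was made.

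The windows end at a set distance from the gene's ends. The outermost region inside the Gata3 window lay 298 kb from the gene on one side, with fold enrichments of 9.38 to 11.3, and 288 kb on the other, with 21.2 to 23.7. The next regions outside lay at 335 and 317 kb and were each listed in 1 library, at 6.05 and 5.23.

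As TPM is per length, the 3 GATA genes can be set side by side within a library. Their summed RNA was 69.1 and 68.0 TPM in control and 81.0 and 80.0 TPM in knockout. Gata3 made up 65.7% and 63.8% of it in control and 11.2% and 12.8% in knockout. Gata2 made up 31.6% and 33.7% against 83.7% and 80.5%, and Gata1 2.67% and 2.53% against 5.06% and 6.67%. Gata3 was thus the leading GATA RNA in both control libraries and Gata2 in both knockout libraries.

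The ratio of Gata2 to Gata3 was 0.480 and 0.529 in control and 7.45 and 6.29 in knockout. Zfpm1 per unit of summed GATA RNA was 0.890 and 0.975 in control and 0.661 and 0.624 in knockout. Each of these separated the genotypes. With 2 libraries against 2 an exact permutation test (two-sided) cannot go below 0.333, so these values are given as a description. The ratio of Gata2 to Gata1 was 11.8 and 13.3 in control and 16.5 and 12.1 in knockout and overlapped.

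**Figure D3:**
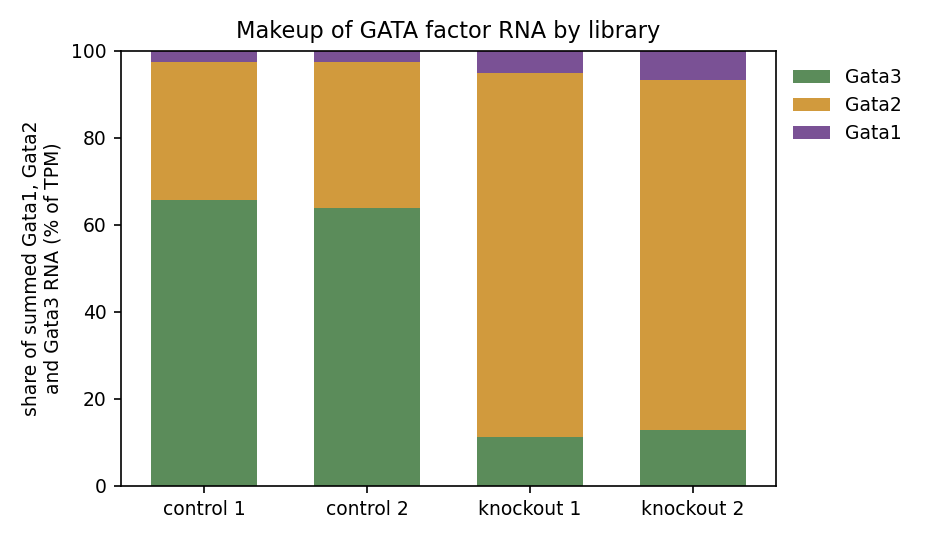
Share of each GATA gene in the summed TPM of Gata1, Gata2 and Gata3, in percent, for each of the 4 RNA libraries. Gata3 fills 65.7% and 63.8% of the control bars and 11.2% and 12.8% of the knockout bars.

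In order of level, the control libraries ran Zfpm1, Gata3, Gata2, Gata1, and each step exceeded the spread between libraries. In the knockout libraries the order was Gata2, Zfpm1, Gata3, Gata1, again with no overlap between neighbours.

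Relatives of the 4 genes were low or did not pass the test. Gata4, Gata5 and Zfpm2 (FOG2), which act in heart and gut, had mean TPM under 1 and were not tested; none exceeded 0.951 TPM in a library. Gata6, of heart, gut and vessel wall, stood at 1.86 and 1.65 TPM in control and 4.09 and 2.87 TPM in knockout (log2 change 0.69, adjusted p = 0.0679). Trps1, a repressor with a GATA-type finger, stood at 17.5 and 17.2 against 17.8 and 15.7 TPM (log2 change −0.05, adjusted p = 0.726).

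Partners of GATA factors were called in both directions. The SCL complex joins TAL1, an E protein, LMO2 and LDB1 to a GATA factor on DNA. Of 17 tested partner genes, 4 rose and 6 fell, with a median log2 change of −0.17, where 25.2% of all tested genes rose and 14.7% fell; the share of rises is near that background. Rises numbered 2 and falls 7 with quantile normalization or median-ratio scaling. Over all 13228 tested genes these settings also lowered the rises, from 3331 to 2608 and 2451. They raised the falls over all genes from 1940 to 2296 and 2512. Partner rises were also fewer on leaving out any 1 library, as were the rises over all genes. Tal1 stood at 2.97 and 3.96 TPM in control and 24.4 and 21.2 TPM in knockout (log2 change 2.42, adjusted p = 0.000665). Lmo2 stood at 118 and 114 against 282 and 287 TPM (log2 change 1.29, adjusted p = 0.000147). Gfi1b, a transcriptional repressor that acts in red cell and platelet development, fell from 39.2 and 32.6 to 19.1 and 22.0 TPM. Ssbp3, which stabilises LDB1, fell from 54.2 and 56.3 to 33.6 and 33.9 TPM.

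The 2 largest changes were thus rises, of Tal1 and Lmo2, but not every gene of the complex rose. Ldb1 fell from 195 and 199.7 to 158 and 165 TPM (log2 change −0.29, adjusted p = 0.00569), and Lyl1, a relative of Tal1, from 86.2 and 90.4 to 68.3 and 65.96 TPM (log2 change −0.39, adjusted p = 0.00477). Klf1, the erythroid partner of GATA1, had a mean under 1 TPM and was not tested.

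Of the 13 genes of NuRD, all tested, 5 rose and 4 fell (25.2% and 14.7% over all tested genes), with a median log2 change of 0.10; after quantile normalization 3 rose, and without control replicate 1 there were 2 falls. Mta3, a subunit variant, fell from 129 and 122 to 69.0 and 73.0 TPM, and Chd3, a remodelling ATPase, from 152 and 151 to 109 and 112 TPM. Rbbp7, a histone chaperone, rose from 200 and 201 to 313 and 312 TPM, and Gatad2a, which itself holds a GATA-type finger, from 59.7 and 55.9 to 74.4 and 79.8 TPM. Every NuRD gene was at 55.9 TPM or more in every library.

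Genes of lineages in which GATA factors act were listed by lineage. Only the erythroid list was chosen as GATA targets, and control of the other lists by GATA factors was not tested. In the early T-lineage list, which is where GATA3 acts, 20 of 22 tested genes fell and 0 rose, with a median log2 change of −1.89. Over all tested genes 14.7% fell and 25.2% rose, with a median of 0.09. Summed, the list stood at 1099 and 1097 TPM in control and 298 and 293 TPM in knockout. The largest falls were in Il2ra, Cd3g, Cd3e and Cd247, the last a signalling chain of the T-cell receptor at 20.1 and 24.0 against 0.578 and 2.16 TPM.

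Mast cell and basophil genes, a lineage of GATA2, rose in 12 of 17 tested and fell in 3 (25.2% and 14.7% over all tested genes), with a median log2 change of 1.95. The proteases Cma1 (listed at 0 and 2.13 against 12.7 and 14.9 TPM), Mcpt2 (2.90 and 3.07 against 22.1 and 37.1 TPM) and Mcpt1 (16.4 and 12.8 against 102 and 100.3 TPM) and Hdc, which makes histamine (9.89 and 8.29 against 64.4 and 66.0 TPM), rose most. For Cma1, leaving out knockout replicate 2 gave an adjusted p of 0.0508. What part mast cells and basophils have in the Gata2 and Gata1 values was not tested. Kit, Cpa3 and Gzmb were the 3 that fell. Gzmb, a granule protease, went from 507 and 524 to 199 and 191 TPM. The summed level of the list overlapped between genotypes, at 1648 and 1630 TPM against 1576 and 1643 TPM.

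Erythroid GATA1 target genes were mostly low. Of 22 listed, 10 were tested, 4 rose and 2 fell (25.2% and 14.7% over all tested genes), with a median log2 change of 0.30, and without either control replicate or the filter on low values 0 fell. Tfrc, the transferrin receptor, rose from 72.6 and 68.9 to 157 and 154 TPM, and Car2, a carbonic anhydrase, from 89.0 and 93.5 to 151 TPM in both. Nfe2, a factor of globin and platelet genes, fell from 107 and 116 to 90.6 and 66.8 TPM, a call lost without control replicate 1 or 2 (adjusted p = 0.124 and 0.179). Of the defining red cell genes, Hba-a1 was listed at 0 throughout and Slc4a1 did not exceed 0.134 TPM. Hbb-bt was at 111 TPM in control replicate 1 and between 0.788 and 16.0 TPM in the other 3 libraries.

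Of 12 tested megakaryocyte genes 2 rose and 2 fell, with a median log2 change of 0.63. Against 25.2% and 14.7% over all tested genes, those counts are near the background. Pf4, platelet factor 4, rose from 26.0 and 32.2 to 70.3 and 67.0 TPM and Selp, P-selectin, from 9.92 and 9.55 to 19.1 and 18.5 TPM. The integrin chains Itgb3 (50.6 and 48.6 against 22.3 and 22.0 TPM) and Itga2b (97.0 and 94.1 against 48.8 and 54.7 TPM), which pair on platelets, fell.

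Th2 and ILC2 genes, of cells that GATA3 directs later, were mostly near the floor: 8 of 13 had a mean under 1 TPM. Of the 5 tested, 2 fell and 1 rose, where 14.7% of all tested genes fell and 25.2% rose. So few genes give no direction for the list. Among 5 tested, Il17rb, a receptor of the cytokine IL-25, fell from 23.4 and 24.1 to 9.96 and 9.83 TPM, and Il1rl1, the IL-33 receptor that mast cells also carry, rose from 2.41 and 3.14 to 11.3 and 9.27 TPM. Rora, an ILC2 factor, fell from 4.81 and 5.85 to 3.16 and 2.45 TPM, a call lost without any 1 library (adjusted p = 0.0663 to 0.161), which leaves Il17rb as the 1 fall. The cytokine genes Il4, Il5 and Il13 did not exceed 1.69 TPM in any library.

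**Figure D4:**
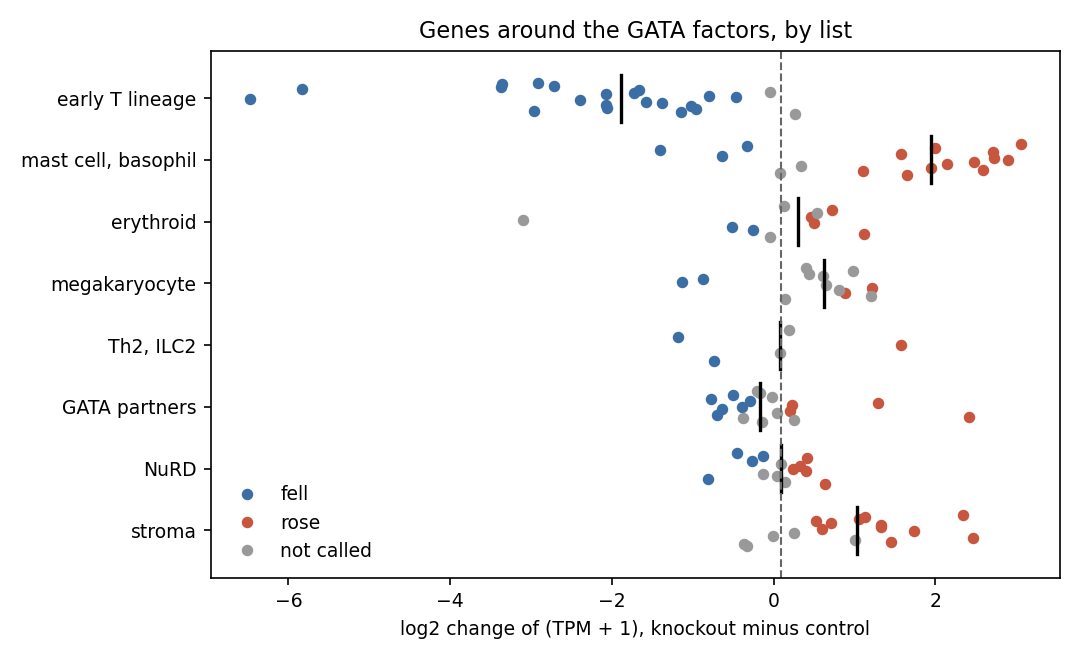
Log2 change of TPM + 1, knockout minus control, of the tested genes of 8 lists; points are genes, coloured by call, black bars are list medians and the dashed line is the median of all tested genes (0.09). The early T-lineage median lies at −1.89 and the mast cell and basophil median at 1.95.

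Genes beside the 4 were examined from the same windows. Of 36 models, 17 were tested, 7 rose and 2 fell, against 25.2% and 14.7% of all tested genes. Leaving out any 1 library lowered the rises and kept or lowered the falls. Calls over all tested genes also became fewer in each such fit. Near Gata2, Rpn1, a subunit of the enzyme that glycosylates new proteins, rose from 128 and 131 to 255 and 265 TPM (log2 change 1.001, adjusted p = 0.000245). Also near Gata2, Eefsec, an elongation factor for selenoproteins, had 17.3 and 19.9 against 24.0 and 25.9 TPM, a call lost without any 1 library (adjusted p = 0.0537 to 0.130).

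Near Gata3, 3 neighbours rose and 0 fell, where 25.2% of all tested genes rose and 14.7% fell. So few genes give no direction for the window. Taf3, a subunit of the general factor TFIID, rose from 24.8 and 23.7 to 33.3 and 32.9 TPM, a call lost without control replicate 2 (adjusted p = 0.0526). Atp5c1, of the mitochondrial ATP synthase, rose from 257 and 254 to 345 and 340 TPM. Itih5 rose from 19.2 in both to 23.9 and 25.04 TPM, a call lost without any 1 library (0.0791 to 0.114). The lncRNA models 4930412O13Rik and 9230102O04Rik, just beyond the Gata3 start, did not exceed 0.672 TPM and were not tested.

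Near Gata1, Pim2, a survival kinase, fell from 8.33 and 9.54 to 3.93 and 3.09 TPM, a call lost without control replicate 2 (adjusted p = 0.0518). Otud5, a deubiquitinase, fell from 39.9 and 39.1 to 30.7 and 33.9 TPM, a call lost without either control replicate or knockout replicate 1 (0.121 to 0.144). Timm17b, of mitochondrial import, rose from 19.4 and 17.3 to 25.8 and 24.1 TPM, a call lost without any 1 library (0.0519 to 0.106). Near Zfpm1, Zc3h18, an RNA-processing factor, rose from 83.2 and 84.2 to 106 and 105 TPM.

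Likeness of pattern was measured as the root mean square difference of centred log2(TPM + 1) over the 4 RNA libraries, among 9999 tested genes with a mean of at least 5 TPM and a name that is not a Gm or Rik model. With 4 libraries this mostly matches the size of change. Nearest to Gata3 were Dntt (0.015), Klf6 (0.017), Cd69 (0.037), Bnip3 (0.068) and Ltb (0.068). Nearest to Gata2 were Ebf3 (0.030), Plxna1 (0.032), Antxr1 (0.032), Pls3 (0.046) and Gas6 (0.048). For Gata1 they were Chchd4 (0.028), Med21 (0.058), Atp5k (0.060), Agtpbp1 (0.069) and Ctnnd1 (0.070), and for Zfpm1 Ncoa1 (0.010), Cmtm7 (0.012), Nr2c2 (0.013), Map2k7 (0.014) and Prune (0.016).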

How the data were processed

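Per the submitters' processing notes, HISAT2 and StringTie served for RNA, Bowtie2 and MACS2 for ATAC, with mm10 as build and versions unnamed. The deposited TPM sums to 1000000 in each library; the deposited FPKM was an alternative. The deposited coverage, an unscaled signal, gave a median ratio to FPKM of 2.12 to 2.64, so relative depth was similar; read counts were not used here, and precision rests on 2 libraries a group. The authors' peak lists, 1 per library, give a fold enrichment (ratio), a score, −log10 p and −log10 q; ATAC depth is unknown. Use of strand in counting is unstated in the labels.

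TPM of repeated gene IDs were summed. A gene needed an average TPM of 1 or more and was tested on log2(TPM + 1) with limma 3.58.1 (intensity trend) in R 4.3.3, with genotype as the only term; the code was tested on simulated data. Fold changes on this scale understate low genes. Rpph1, an abundant RNA, took 19.2% to 19.3% of TPM in control and 15.2% to 15.8% in knockout. Peaks were merged where they shared a base, without the mitochondrial chromosome. The members and lists were chosen with earlier results of these data known. Named genes were the 4 members, Tcf7 and Lef1, the relatives, the 4 largest called changes with non-overlapping libraries of each list, called neighbours and the 5 most alike genes; sort markers and defining red cell genes were looked up, and single low or falling list members were named after their values were seen, as were the GC box, GATA and CCAAT searches. Some genes that the rule names are not reported here.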

Additional observations from a re-analysis of the deposited data

How the results depend on the processing

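Of 486 alternatives, 416 kept the direction and side of the threshold or a count within 1.5 times. Of the rest, 62 counts moved further, 6 calls were lost and 2 reversed. The cause was not tested. The 6 lost calls were of Gata1 and Zfpm1. Single genes of the partner, NuRD, lineage, stromal and neighbour lists were not among the 486, and some lost their calls. The 416 include cases that could not change, since scaling a whole library leaves the shares of the GATA genes as they were. The 2 reversals were of genes not called in any fit, Lef1 (log2 change 0.09, −0.081 without control replicate 2, and −0.081 to 0.26 leaving out 1 library) and Trps1 (−0.05, 0.035 without knockout replicate 2, and −0.14 to 0.035). Gata2 and Gata3 kept their calls in each alternative run. Leaving out 1 library gave log2 changes of 0.88 to 1.19 for Gata1 and −0.35 to −0.24 for Zfpm1, where 3 of 4 such fits lost each call. Gata1 has no value with a mean TPM of at least 5, below which it lies.

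Leaving out 1 library also gave 2 to 3 partner rises, 2 to 3 NuRD falls, 0 to 1 erythroid falls, 1 Th2 and ILC2 fall throughout, 0 to 1 stromal falls, and 0 to 2 falls and 3 to 5 rises among neighbours. Over all genes it gave 1088 to 1450 falls and 2005 to 2242 rises. Partner rises numbered 2 with quantile normalization, with median-ratio scaling and with TPM rescaled after removing Rpph1, the last chosen after seeing the data. NuRD rises numbered 3 with quantile normalization. Without the filter on low values 0 erythroid genes and 1 neighbour fell, and with a mean TPM of at least 5, 1 Th2 and ILC2 gene fell.

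The labels share replicate numbers, but deviations of same-numbered RNA libraries correlated at 0.0043, so the numbers were not taken as a pairing. With the replicate block, 2 partner genes rose, 1 Th2 and ILC2 gene and 1 neighbour fell, and the 4 members kept their calls (adjusted p = 0.0276 for Gata1, 0.0012 for Gata2 and Gata3 and 0.0437 for Zfpm1, limma).

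Leaving out 1 list can only keep or raise the counts of both classes of region. Control-alone regions then ranged over 0 to 1 near Gata1, 1 to 2 near Gata2, 4 to 10 near Gata3 and 4 to 6 near Zfpm1. Genome-wide they numbered 8682 to 11111, against 6458 with all lists. Knockout-alone regions ranged over 1 to 2, 2 to 5, 4 to 8 and 3 to 5 near these genes in the same order. Genome-wide they numbered 12421 to 16282, against 8939 with all lists. Peaks with −log10 q of at least 5 gave 2 knockout-alone of 20 regions near Gata1 and 2 of 59 near Gata3. Genome-wide, 8488 of 131855 regions were then knockout-alone. With at least 10 there were 0 control-alone and 4 knockout-alone of 26 regions near Gata2. Near Gata3 2 of 42 were then knockout-alone. Genome-wide, 5512 and 6125 of 102886 regions were then control-alone and knockout-alone. Requiring peaks to cover the larger portion of the region gave 2 knockout-alone of 20 near Gata1 and 4 of 57 near Zfpm1. Genome-wide this gave 9922 of 134830. Within 50 kb, control-alone and knockout-alone regions numbered 0 and 0 of 13 near Gata2 and 1 and 2 of 15 near Gata3. Near Zfpm1 they numbered 0 and 1 of 41. The shares over all regions were 4.79% and 6.63%.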
